A study of Temnothorax rugatulus with 32 samples.

Results

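The contigs described here are 8 transcripts of the ant *Temnothorax rugatulus* whose best database hits are proteasome proteins, a small ubiquitin-related modifier (SUMO) and the ubiquitin ligase CBL-B. They were found by searching the protein descriptions in the authors' deposited age tables for "proteasome", "ubiquitin-related modifier" or "CBL-B" with an ant as the species of the best hit. That rule would keep at most 10 contigs, ranked by total count, and 8 matched, so the ranking left none out. They are 8 of 771 described contigs with an ant hit, of 1073 described contigs and of 228763 contigs in the count table. All 8 are listed in the authors' deposited table of age in the fat body and none in that of age in the brain. Age in the fat body is therefore a description of how they were chosen and is given no test. The tissue comparisons use the same fat body libraries. Any change of a tissue difference between young and old queens is thus partly built in by that choice and is not read as a result. Queens were taken from the field as old and as young animals, 8 of each, and RNA was sequenced from the brain and the fat body of every queen, giving 32 libraries. The groups are old fat body, young fat body, old brain and young brain, each with 8 libraries from separate queens, and no treatment or genetic change is labelled in any of them. The labels give age as old or young only, with no number of years, and the fat body and brain with the same queen number come from the same animal.

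The proteasome is the protease that degrades most proteins tagged with ubiquitin in the cytosol and nucleus. Its barrel-shaped core is built from outer rings of alpha subunits and inner rings of beta subunits, some of which hold the cutting sites, and a regulatory cap recognises, unfolds and feeds in the tagged proteins. Ubiquitin is attached by chains of enzymes that end in a ligase, and SUMO is a related tag that changes the activity or location of proteins, many of them nuclear. The insect fat body combines functions of liver and adipose tissue, storing lipid and making blood proteins and yolk precursors.

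In the core, proteasome subunit beta type-5 (beta type-5, contig TR61503c0_g1_i1, best hit in *Solenopsis invicta*) corresponds in yeast and mammals to the subunit with chymotrypsin-like cutting activity, and proteasome subunit beta type-6 (beta type-6, TR31230c0_g1_i1, *Wasmannia auropunctata*) to the one with caspase-like activity. Beta type-1 (TR48425c0_g1_i1, *Solenopsis invicta*) and alpha type-6-like (TR59857c0_g1_i1, *Pogonomyrmex barbatus*) correspond to subunits of the core that do not cut. Non-ATPase regulatory subunit 12 (TR26982c0_g1_i1, *Vollenhovia emeryi*) belongs to the lid of the cap, and the proteasome maturation protein (TR44256c0_g1_i1, *Pogonomyrmex barbatus*) is a chaperone that helps unfinished cores assemble. Small ubiquitin-related modifier 3 (SUMO 3, TR15931c0_g1_i1, *Monomorium pharaonis*) is the tag itself. E3 ubiquitin-protein ligase CBL-B, isoform X2 (TR74528c2_g1_i1, *Atta colombica*) is a ligase that, in mammals, tags activated tyrosine kinase receptors and their partners. The names are those of the best hits, and the sequences themselves are not printed here. Each of the 8 was the only contig of its assembled gene, so its counts were not divided among listed isoforms.

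Old fat bodies had total counts of 22798433 to 29614630, young fat bodies of 20658985 to 31200003, old brains of 13861667 to 27434445 and young brains of 23826705 to 33461227. The members were well covered: CBL-B had at least 57 counts in every library and the other 7 at least 385. Library composition differed between the tissues. Old fat bodies spent 52.2% ± 3.85 and young fat bodies 42.4% ± 4.69 of their counts on the 100 most abundant contigs, old brains 19.7% ± 1.97 and young brains 21.5% ± 1.38 (SD, n = 8 each). The trimmed mean of M values (TMM) factors that correct for this ran from 0.58 to 0.759 for old fat bodies, 0.616 to 0.959 for young fat bodies, 1.34 to 1.57 for old brains and 1.35 to 1.501 for young brains. Levels are given as CPM, a contig's count relative to the total count of its library, scaled with these factors over all 32 libraries unless total-count scaling is named. In such bulk samples, fewer cells of a type and less RNA per cell cannot be told apart.

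Marker lists could be drawn only from contigs the authors selected on age, so an age difference in them is partly built in. The fat body list held 2 transferrin contigs. Vitellogenin, hexamerin and apolipophorin were also searched for, but no description of the age-selected contigs matched them. The fat body list is taken up first. Its summed level had a lowest, median and highest value of 965, 4707 and 8291 CPM in old fat bodies and 54.6, 255 and 2649 CPM in young fat bodies. In old brains the same sum was 137, 283 and 451 CPM, and in young brains 113, 189.2 and 330.1 CPM. The young fat bodies thus overlapped the brains on this list, and the label of that tissue could not be checked by it. Gut markers (6 contigs, aminopeptidase N-like, maltase 2-like and chymotrypsin-2-like) summed to 216 to 2527 CPM in old fat bodies, to 98.6 to 658 CPM in young ones, and to at most 14.4 CPM in old brains and 19.04 CPM in young ones. The haemocyte marker (1 contig, croquemort-like) had a median of 352 CPM in old fat bodies, 154 CPM in young ones, 89.4 CPM in old brains and 94.9 CPM in young ones. The neuron list (3 contigs, neuroligin-1-like, complexin and an acetylcholine receptor subunit) had a median of 113 CPM in old fat bodies, 184 CPM in young ones, 239 CPM in old brains and 299.6 CPM in young ones. The muscle list (2 contigs, troponin C and tropomyosin-1) had a median of 2.77 CPM in old fat bodies, 13.5 CPM in young ones, 4.44 CPM in old brains and 10.8 CPM in young ones. The photoreceptor marker (1 contig, arrestin) stayed at or below 1.55 CPM in every library. The gut and haemocyte sums were higher, and the neuron and muscle medians lower, in old than in young fat bodies, and their part in the results on the members was not tested.

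The old brains of queens O-603 and O-796 stood apart from the other 6 old brains. Their median correlation with the other old brains was 0.85 and 0.852, against 0.879 to 0.887 for the rest. Their summed neuron markers were 148 and 219 CPM, the lowest of the 8, where the other 6 had 226 to 276 CPM. Both also had the highest levels of the 4 core subunits among the old brains, while the fat bodies of the same 2 queens lay inside the range of the other old fat bodies for those subunits. The tissue comparison in old queens, age in the brain, the ratios, the levels per kilobase and the correlations below are also given without them.

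**Figure D1:**
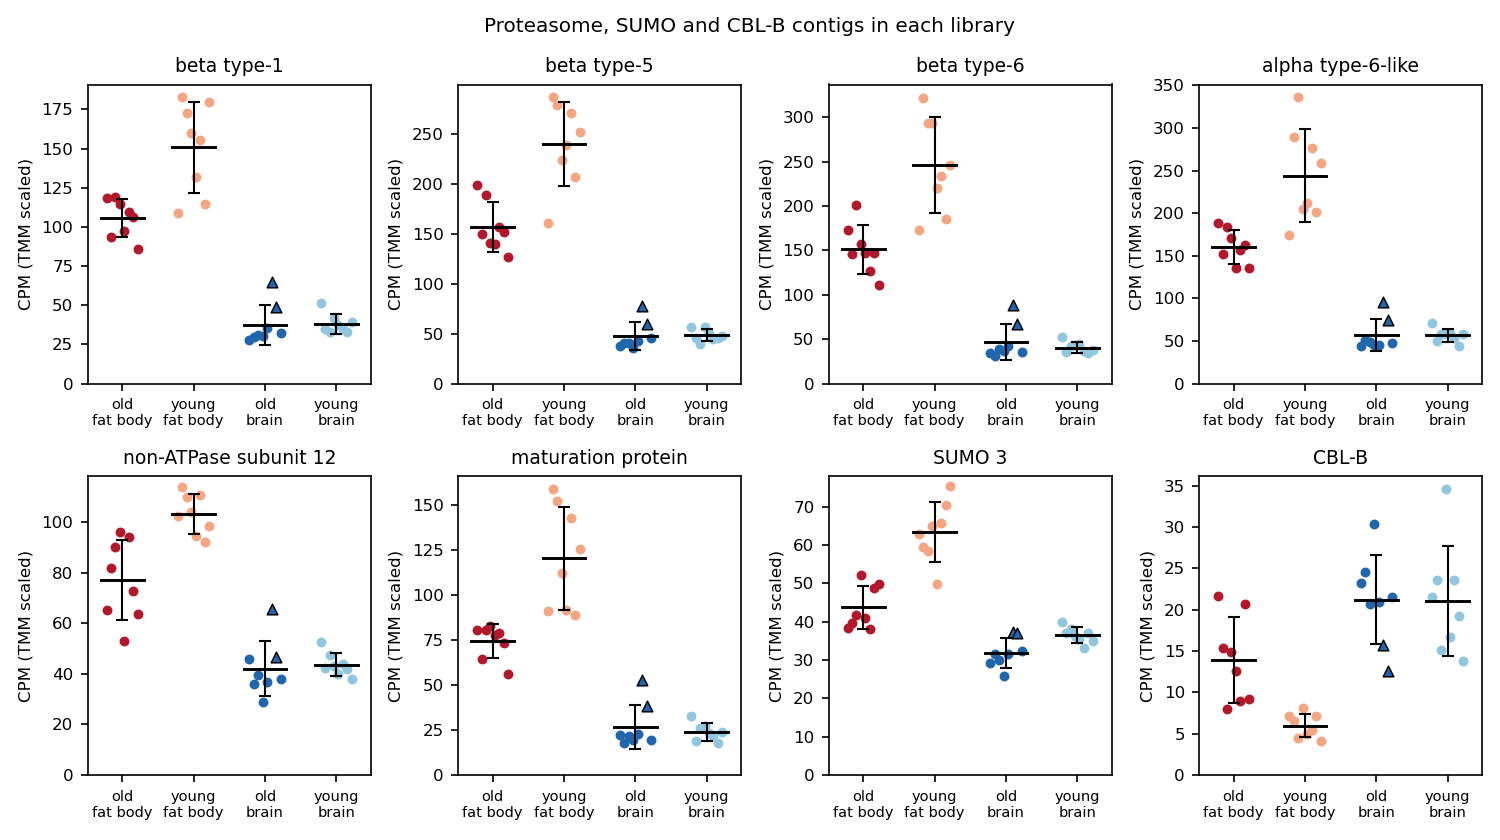
TMM-scaled CPM of each of the 8 contigs (vertical axes) in the 8 libraries of each group, with the mean and SD; triangles mark the old brains of queens O-603 and O-796. The 7 proteasome and SUMO contigs have lower means in old than in young fat bodies and CBL-B a higher mean, which is the contrast that chose them; old and young overlap in 7 of the 8 in the fat body and in all 8 in the brain.

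Proteasome subunit beta type-5 had a lowest, median and highest level of 127, 151 and 199.6 CPM in old fat bodies and 161, 246 and 287 CPM in young fat bodies. In old brains it stood at 35.3, 41.8 and 78.0 CPM and in young brains at 39.6, 46.4 and 56.8 CPM. Every fat body lay above every brain. In old queens the fat body was higher than the brain by a log2 difference of 1.93 ± 0.17 (SE, edgeR quasi-likelihood test, adjusted p = 1.7e-07), and in young queens by 2.36 ± 0.13 (adjusted p = 8.3e-10). Proteasome subunit beta type-6 had 111, 147 and 201 CPM in old fat bodies and 173, 240.0 and 322 CPM in young fat bodies. Its levels were 31.3, 37.9 and 88.5 CPM in old brains and 33.9, 39.7 and 51.9 CPM in young brains. Again no fat body fell to the level of any brain, and the log2 difference between tissues was 1.9 ± 0.22 in old queens (edgeR adjusted p = 2.4e-06) and 2.64 ± 0.15 in young queens (adjusted p = 1e-09).

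The core subunits without a cutting site followed the same order of groups. Beta type-1 had 86.1, 108 and 119 CPM in old fat bodies and 109, 158 and 183 CPM in young fat bodies. It had 28.04, 31.5 and 64.7 CPM in old brains and 32.7, 36.2 and 51.4 CPM in young brains. The tissues did not overlap, and the fat body was higher by a log2 difference of 1.7 ± 0.18 in old queens (edgeR adjusted p = 7.5e-07) and 2.02 ± 0.14 in young queens (adjusted p = 1.1e-08). Alpha type-6-like had 136, 159 and 188.9 CPM in old fat bodies and 174, 235 and 336 CPM in young fat bodies. It had 44.5, 48.2 and 95.7 CPM in old brains and 43.7, 58.0 and 70.9 CPM in young brains. Its fat bodies were also all above its brains, with log2 differences of 1.71 ± 0.17 in old queens (edgeR adjusted p = 5.7e-07) and 2.15 ± 0.15 in young queens (adjusted p = 7.9e-09).

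The lid subunit differed less between tissues than the core did. With total-count scaling its log2 difference in old queens was -0.34 and did not pass (edgeR adjusted p = 0.054). Non-ATPase subunit 12 had 52.9, 77.2 and 95.9 CPM in old fat bodies and 92.1, 103 and 114 CPM in young fat bodies. In old brains it had 28.8, 38.7 and 65.4 CPM and in young brains 38.1, 42.7 and 52.7 CPM. Old fat bodies and old brains overlapped, through the brain of queen O-603 at 65.4 CPM, and young fat bodies and young brains did not. The fat body was higher by a log2 difference of 1.07 ± 0.17 in old queens (edgeR adjusted p = 5.3e-05) and 1.28 ± 0.09 in young queens (adjusted p = 1.4e-08). The assembly chaperone resembled the core: maturation protein had 55.9, 78.5 and 82.7 CPM in old fat bodies and 89.0, 119 and 159 CPM in young fat bodies. It had 17.6, 21.9 and 52.7 CPM in old brains and 17.5, 23.5 and 32.5 CPM in young brains. Its log2 difference between tissues was 1.68 ± 0.22 in old queens (edgeR adjusted p = 8.4e-06) and 2.37 ± 0.17 in young queens (adjusted p = 1.4e-08), with no overlap of the tissues at either age.

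SUMO 3 had the smallest tissue difference of the 7 contigs that were higher in the fat body with TMM scaling. With total-count scaling, described below, SUMO 3 was lower in the fat body of old queens and did not pass in young queens. It had 38.1, 41.4 and 52.2 CPM in old fat bodies and 49.7, 64.0 and 75.5 CPM in young fat bodies. In old brains it had 25.7, 31.5 and 37.2 CPM and in young brains 33.2, 36.7 and 40.0 CPM. The log2 difference between tissues was 0.66 ± 0.12 in old queens (edgeR adjusted p = 0.00013) and 0.83 ± 0.1 in young queens (adjusted p = 1.7e-06). The lowest fat body was above the highest brain at either age. SUMO 3 was also the steadiest of the 8 contigs in young brains, where its coefficient of variation over 8 queens was 5.64%, against 10.4% to 31.6% for the others.

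E3 ubiquitin-protein ligase CBL-B ran the other way. It was chosen on a higher level in old than in young fat bodies. A smaller tissue difference in old queens is therefore partly built in. It had a lowest, median and highest level of 8.00, 13.7 and 21.6 CPM in old fat bodies and 4.14, 5.95 and 8.09 CPM in young fat bodies. In old brains it had 12.5, 21.2 and 30.4 CPM and in young brains 13.8, 20.4 and 34.7 CPM. Every young fat body was below every young brain, by a log2 difference of -1.77 ± 0.22 (edgeR adjusted p = 2.8e-06). Old fat bodies overlapped old brains, and the log2 difference of -0.4 ± 0.24 did not pass (edgeR adjusted p = 0.18). That call depended on the fit: the log2 difference in old queens was -0.59 with DESeq2 (adjusted p = 0.027) and -0.61 with all 32 libraries in a single fit (adjusted p = 0.024), in a range of adjusted p over the alternatives run from 5.4e-06 to 0.24. Within queens, CBL-B was lower in the fat body than in the brain in 7 of 8 old and 8 of 8 young queens, and the exception was queen O-796, with 20.7 CPM in the fat body and 12.5 CPM in the brain.

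Across all contigs tested, 55.8% of 34574 passed between the tissues of old queens, made up of 26.1% of the 34574 that were higher in the fat body and 29.7% that were lower. In young queens 57% of 35113 passed, 23% of the 35113 being higher and 34% lower. Against that background, with TMM scaling, 7 of the 8 members were higher in the fat body and 0 lower in old queens. In young queens 7 were higher and 1 lower. With total-count scaling SUMO 3 was lower in the fat body of old queens and did not pass in young queens. Subunit 12 did not pass in old queens with that scaling. Without the old brains of queens O-603 and O-796 the counts in old queens were again 7 and 0. The log2 differences were then 2.16 for beta type-5, 2.26 for beta type-6, 1.97 for beta type-1, 1.97 for alpha type-6-like, 1.25 for subunit 12, 2.07 for maturation protein and 0.75 for SUMO 3, with edgeR adjusted p between 1.8e-08 and 0.0001. CBL-B was then at -0.55 (edgeR adjusted p = 0.071). On paired values of TMM-scaled log2(CPM + 1), the 7 proteasome and SUMO contigs were higher in the fat body in 8 of 8 old and 8 of 8 young queens. That held for 17.6% of all contigs tested in old queens and 16.8% in young queens. With total-count scaling the counts of old queens with a higher fat body were 7 of 8 for beta type-5, 6 of 8 for beta type-1, beta type-6, alpha type-6-like and maturation protein, 2 of 8 for subunit 12 and 0 of 8 for SUMO 3. In young queens they were 8 of 8 for the 6 proteasome contigs and 4 of 8 for SUMO 3. With that scaling 7.79% of all contigs were above in all 8 old queens and 50.7% below, and 9.12% were above in all 8 young queens and 46.1% below. CBL-B was below in all 8 young queens, as were 32.4% of the contigs tested there.

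These directions are relative to the rest of the transcriptome. The median log2 difference of all contigs tested, fat body minus brain, was -0.05 in old queens and -0.271 in young queens with TMM factors, and moved to -1.46 and -1.149 with total-count scaling. Relative to that median, beta type-5 stood at 1.98 with either scaling in old queens, and at 2.63 with TMM and 2.6 with total counts in young queens. SUMO 3 stood 0.71 above the median with either scaling in old queens. As shares of all counts the picture is different, and some directions flip. With total-count scaling in old queens, SUMO 3 was lower in the fat body (log2 difference -0.75, edgeR adjusted p = 6.4e-05), subunit 12 was at -0.34 (adjusted p = 0.054), and 4 of 8 members passed, 2 in each direction, where 68.7% of all contigs passed, 10.2% higher and 58.5% lower. Beta type-5 (0.52, edgeR adjusted p = 0.0064) and beta type-6 (0.5, adjusted p = 0.035) remained higher there, while beta type-1 (0.29), alpha type-6-like (0.3) and maturation protein (0.29) no longer passed. In young queens with that scaling 63% of all contigs passed, 12.3% higher and 50.7% lower. There 6 members were higher and CBL-B lower, and SUMO 3 had a log2 difference of -0.06 (edgeR adjusted p = 0.68).

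**Figure D2:**
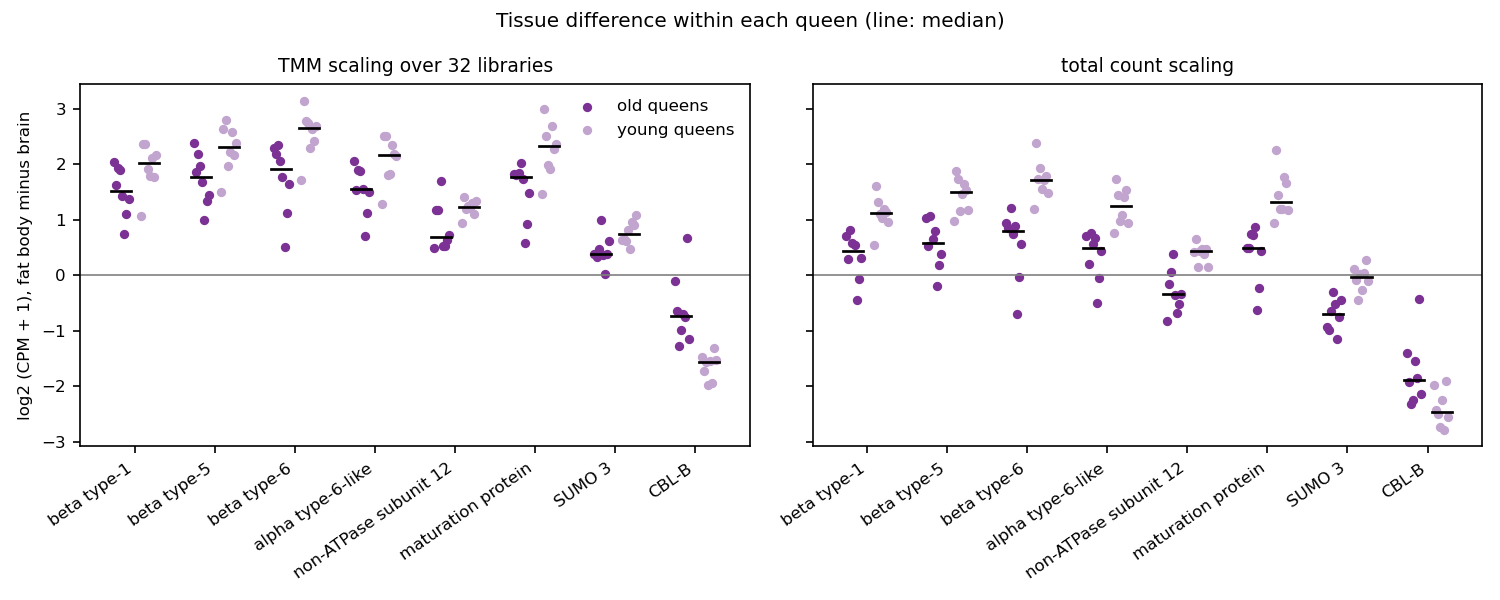
Difference in log2(CPM + 1) between the fat body and the brain of the same queen (vertical axes) for each contig, old queens left of young queens, with TMM scaling on the left and total-count scaling on the right; each point is a queen and lines are medians. The median for beta type-6 is 1.92 in old and 2.66 in young queens with TMM and 0.8 and 1.72 with total counts. For SUMO 3 the medians with total counts are -0.7 in old and -0.04 in young queens. The contigs were chosen on age in the same fat bodies, so differences between old and young queens are partly built in.

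The ratio of 2 members within a library does not depend on scaling, so ratios were compared between tissues over the 16 queens. This comparison was chosen after the values had been seen, and all 28 pairs were tested with an exact two-sided sign-flip permutation test, adjusted over the 28. Ratios shifted between the tissues are common: 45.5% of all pairs of 566 described contigs with an ant hit and a count in every library shifted one way in 16 of 16 queens, as did 16 of the 28 member pairs. The test passed for 25 of the 28, and for 26 without queens O-603 and O-796. The share of all pairs that would pass this test was not computed, and the 45.5% is for the stricter one-way measure. Nothing about the members is therefore read from the number of pairs that passed. The log2 ratio of beta type-5 to subunit 12 was 1.12 ± 0.3 in fat bodies and 0.15 ± 0.2 in brains (SD, n = 16 each). It was higher in the fat body in 16 of 16 queens, by 0.97 ± 0.42 (SD), with an exact permutation p = 3.1e-05, the smallest this test can give, and adjusted p = 5.3e-05. The other core subunits also stood higher relative to subunit 12 in the fat body, by 0.69 ± 0.37 for beta type-1, 0.76 ± 0.41 for alpha type-6-like and 1.11 ± 0.51 for beta type-6, in 16, 16 and 15 of 16 queens. Maturation protein rose against subunit 12 in the same way, the log2 ratio of subunit 12 to maturation protein being -0.07 ± 0.3 in fat bodies and 0.81 ± 0.28 in brains (SD, n = 16 each, exact permutation adjusted p = 5.3e-05). Within the core the shifts were smaller, and 4 of 6 pairs passed. The ratio of beta type-1 to beta type-6 differed by -0.42 ± 0.28 (SD, n = 16, exact permutation adjusted p = 0.00024), that of beta type-6 to alpha type-6-like by 0.35 ± 0.28 (adjusted p = 0.00027) and that of beta type-5 to alpha type-6-like by 0.21 ± 0.13 (adjusted p = 0.00017). Beta type-1 lost ground to beta type-5 in 16 of 16 queens, by -0.27 ± 0.13 on the log2 scale (SD, exact permutation adjusted p = 5.3e-05), whereas the ratio of beta type-1 to alpha type-6-like differed by -0.06 ± 0.14 (adjusted p = 0.086). The ratios of beta type-5 to beta type-6 (-0.14 ± 0.29, exact permutation adjusted p = 0.069) and of beta type-5 to maturation protein (0.08 ± 0.26, adjusted p = 0.22) did not pass either. Without queens O-603 and O-796 the ratio to subunit 12 was higher in the fat body in 14 of 14 queens for each core subunit, by 1.02 ± 0.42 for beta type-5 and 1.23 ± 0.39 for beta type-6 (SD, exact permutation adjusted p = 0.00016), and the ratio of beta type-5 to beta type-6 passed, at -0.22 ± 0.22 (adjusted p = 0.001).

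Levels of different contigs were compared per kilobase of contig. In old fat bodies the order by mean was beta type-6 at 141 ± 25.8, alpha type-6-like at 96.6 ± 11.96, beta type-5 at 93.9 ± 14.9, beta type-1 at 88.6 ± 10.2, maturation protein at 74.7 ± 9.50, subunit 12 at 49.6 ± 10.2, SUMO 3 at 30.0 ± 3.88 and CBL-B at 5.85 ± 2.21 CPM per kilobase (SD, n = 8). Young fat bodies kept that order, with beta type-6 at 230.2 ± 50.3 CPM per kilobase at the top and CBL-B at 2.51 ± 0.601 at the bottom. Alpha type-6-like, beta type-5 and beta type-1 lay within 1 SD of each other in both groups. In brains the ladder was compressed. Old brains had beta type-6 at 43.8 ± 18.9, subunit 12 at 27.0 ± 7.06, SUMO 3 at 21.9 ± 2.66 and CBL-B at 8.91 ± 2.27 CPM per kilobase, and young brains had beta type-6 at 37.9 ± 5.49, subunit 12 at 28.1 ± 2.93, SUMO 3 at 25.1 ± 1.42 and CBL-B at 8.83 ± 2.79 (SD, n = 8). Beta type-5, beta type-1, alpha type-6-like and maturation protein had means of 26.9 to 34.0 in old and 24.0 to 33.9 CPM per kilobase in young brains. The spread over queens does not measure whether contigs of the same libraries differ, and differences between these contigs were not tested. Without queens O-603 and O-796 the old brains had beta type-6 at 34.1 ± 3.53, alpha type-6-like at 28.4 ± 1.59, beta type-1 at 26.1 ± 2.20, beta type-5 at 24.2 ± 2.25, subunit 12 at 24.1 ± 3.52, SUMO 3 at 20.6 ± 1.66, maturation protein at 20.6 ± 1.95 and CBL-B at 9.89 ± 1.53 CPM per kilobase (SD, n = 6). Together the 8 contigs held 0.0497% ± 0.00574 of all counts in old fat bodies, 0.0907% ± 0.0111 in young fat bodies, 0.0447% ± 0.0102 in old brains and 0.0431% ± 0.00482 in young brains (SD, n = 8 each).

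The values that chose the members are those of age in the fat body. In the authors' deposited table, the log2 difference of old minus young was -0.624 for beta type-5, -0.711 for beta type-6, -0.524 for beta type-1, -0.611 for alpha type-6-like and -0.437 for subunit 12. The same deposited table, by the authors, has -0.704 for maturation protein, -0.548 for SUMO 3 and 1.171 for CBL-B, with adjusted p-values between 0.0002 for SUMO 3 and 0.034 for subunit 12; the file itself states these differences as young minus old. The edgeR fit gave similar sizes, with -0.62 ± 0.14 for beta type-5, -0.7 ± 0.15 for maturation protein, -0.54 ± 0.12 for SUMO 3 and 1.21 ± 0.25 for CBL-B (SE). The median over 27664 contigs was 0.007. With total-count scaling that median was -0.286 and the members' differences shifted with it, to -0.9 for beta type-5 and 0.87 for CBL-B. Old and young fat bodies did not overlap in 1 of 8 members, maturation protein, with no old fat body over 82.7 CPM and no young one under 89.0 CPM; old below young without overlap held for 0.181% of all contigs tested and old above young for 0.307%. With total-count scaling 6 of 8 did not overlap, against 1.04% of all contigs. Nothing is read from these counts, because the members were chosen on this contrast.

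Beside the rule's edge lie 2 contigs. The proteasomal ubiquitin receptor ADRM1 homolog, a cap protein that binds ubiquitin chains, is written "proteasomal" and so missed the search word; the authors' deposited table gives it an old minus young log2 difference of -0.64 (adjusted p = 0.0114). Another maturation protein contig had a sawfly, *Cephus cinctus*, as best hit and 26 counts in all libraries together, with 2.9 in the authors' deposited table (adjusted p = 0.0313).

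**Figure D3:**
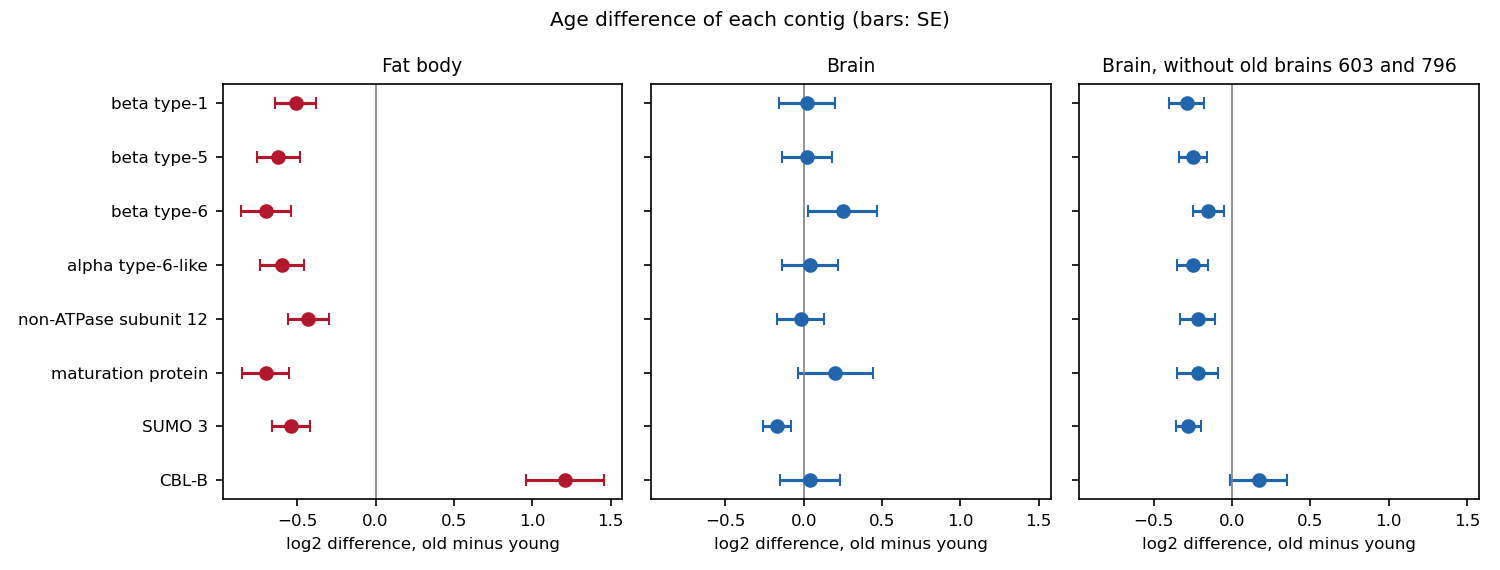
Log2 difference of old minus young with its SE (horizontal axes) for each contig in the fat body, in the brain, and in the brain without the old brains of queens O-603 and O-796. Values run from -0.7 to 1.21 in the fat body, the contrast that chose the contigs, from -0.17 to 0.25 in all brains and from -0.29 to 0.17 without the 2 brains.

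The brain age table was searched by the same rule and gave no member, so the members entered on fat body libraries, and the brains come from the same queens. None of the 8 contigs passed, and the share called over all 40572 contigs tested was 0% as well (edgeR, adjusted p under 0.05). Of all contigs, 1882 had an unadjusted p under 0.05, with 0 of the 8 members among them, and DESeq2 called 0.495% of 38212 contigs, again with no member. The log2 difference of old minus young was 0.02 ± 0.16 for beta type-5, 0.25 ± 0.22 for beta type-6, 0.02 ± 0.18 for beta type-1 and 0.04 ± 0.18 for alpha type-6-like (SE, edgeR adjusted p = 1 each). It was -0.02 ± 0.15 for subunit 12, 0.2 ± 0.24 for maturation protein, -0.17 ± 0.09 for SUMO 3 and 0.04 ± 0.19 for CBL-B (SE, edgeR adjusted p = 1 each). Old and young brains overlapped in all 8 contigs. Over all contigs tested, 0.0296% had old brains below young brains without overlap and 0.0246% had them above.

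The brain values of the core rest on 2 animals. Beta type-6 was at 88.5 and 66.9 CPM in the old brains of queens O-603 and O-796, where the other 6 old brains had 31.3 to 42.2 CPM. Maturation protein was at 52.7 and 38.3 CPM in the same brains, against 17.6 to 22.6 CPM in the rest. SUMO 3, at 37.2 and 37.1 CPM, was highest in the same pair, and CBL-B, at 15.8 and 12.5 CPM, was lowest. Without the 2 brains, a choice made after seeing the data, 7 of 8 contigs had lower values in old brains, as did 50.4% of all 43641 contigs tested. The log2 differences were then -0.29 for beta type-1, -0.25 for beta type-5, -0.15 for beta type-6, -0.25 for alpha type-6-like, -0.22 for subunit 12, -0.22 for maturation protein and -0.28 for SUMO 3, against 0.17 for CBL-B. None passed in edgeR, with adjusted p between 0.57 and 0.92 for the 7 lower contigs, and 4 of the 8 had an unadjusted p under 0.05, as did 6.15% of all contigs. The 2 brains left out had the highest old-brain values of the 7 lower contigs, so leaving them out lowers these differences by itself. The members also vary together. The shares over all contigs are thus not a like comparison, and nothing is read from these counts. The neuron marker sum was also lowest in the 2 brains, but only O-603 stood well apart, at 148 CPM. O-796 was at 219 CPM, close to the next old brain at 226 CPM. The part of this marker sum in the result was not tested.

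Whether members vary together among queens of the same age was examined on deviations from the age-group mean of log2(CPM + 1). Over the 16 fat bodies, 10 of 28 pairs passed a two-sided permutation test with 100000 resamples within age, adjusted over the 28. These were the 6 pairs of core subunits (Pearson r 0.73 to 0.87, Spearman rho 0.67 to 0.9, permutation adjusted p for r from 0.00077 to 0.0088 and for rho up to 0.022) and the 4 pairs of maturation protein with a core subunit (r 0.73 to 0.88, rho 0.69 to 0.89, permutation adjusted p for r up to 0.0072). Leaving out the 2 libraries farthest from the median of the first measure gave r of 0.64 to 0.84 and 0.74 to 0.83 for these sets. Subunit 12 followed the core less closely, with r of 0.26 to 0.42 and none passing. SUMO 3 (r -0.34 to -0.02) and CBL-B (r -0.16 to 0.03) did not follow it in a way that passed. For all pairs of 692 described contigs with an ant hit, the median r over the same libraries was 0.01 and the 95th percentile 0.51. These libraries share depth and composition effects that move many contigs together.

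Over the 16 brains 22 of 28 pairs passed, with r of 0.87 to 0.95 within the core, 0.72 to 0.77 between subunit 12 and the core and 0.73 to 0.78 between SUMO 3 and the core. SUMO 3 with CBL-B passed with a negative r of -0.56 (permutation adjusted p = 0.029). Spearman rho was 0.69 to 0.91 within the core (permutation adjusted p up to 0.023). It was lower for subunit 12 with the core, at 0.43 to 0.53 (adjusted p up to 0.15), and for SUMO 3, at 0.49 to 0.62 (up to 0.1). For all pairs of 690 described contigs with an ant hit, the median r over the same brains was 0.07 and the 95th percentile 0.61. Without the old brains of queens O-603 and O-796, 3 of 28 passed, r within the core ran from 0.47 to 0.8, and r of SUMO 3 with the core ran from 0.25 to 0.49, and the background had a median of 0.04 and a 95th percentile of 0.54.

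**Figure D4:**
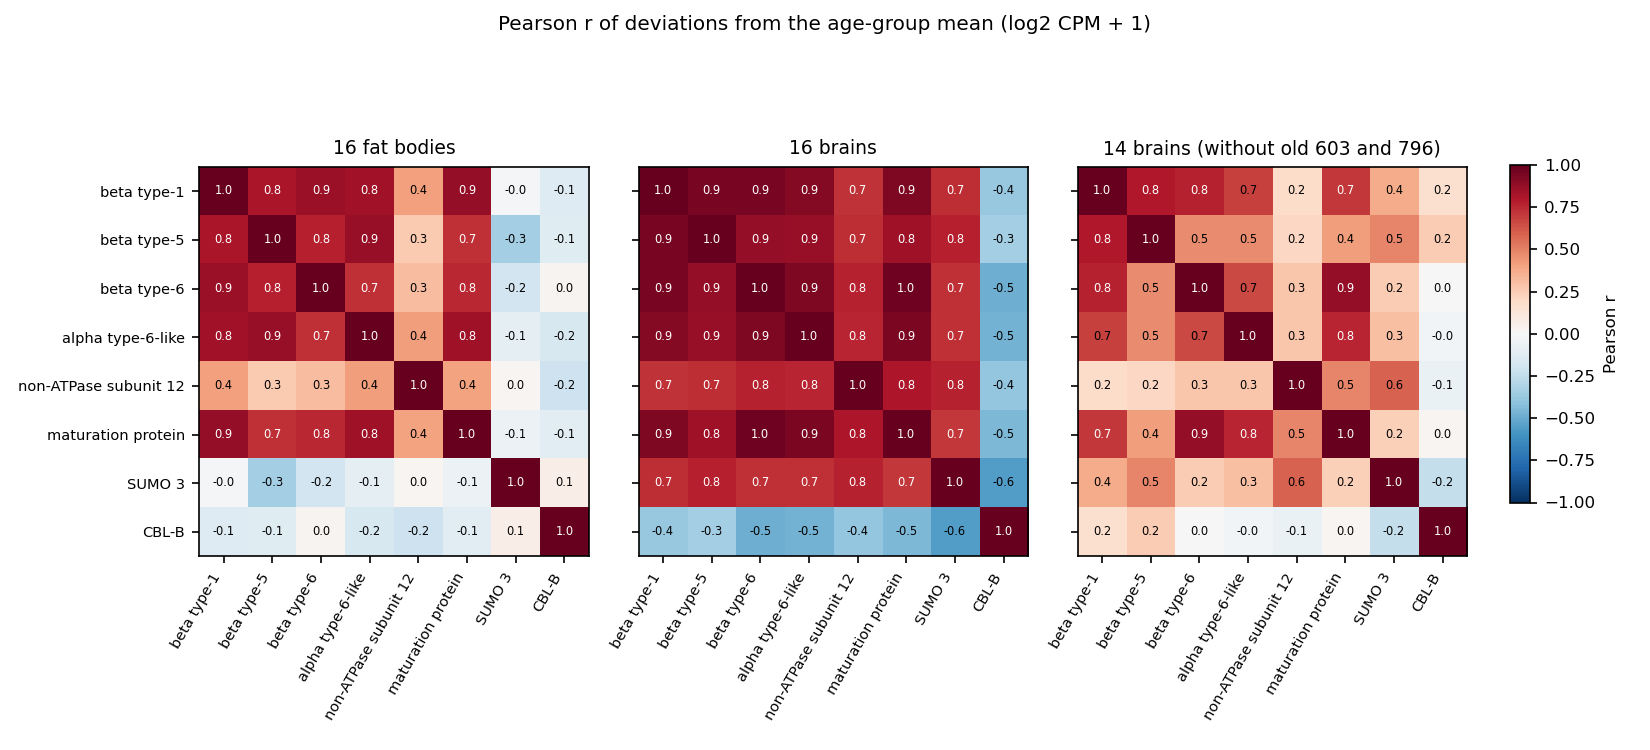
Pearson r between each pair of contigs, as deviations from the age-group mean, over 16 fat bodies, 16 brains, and 14 brains without those of old queens O-603 and O-796 (colour scale from -1 to 1, values printed to 1 decimal). The core subunits and maturation protein form a block in the fat bodies at 0.73 to 0.88, and the brain block shrinks when the 2 brains are left out.

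The contigs with the most similar pattern over all 32 libraries, as deviations from the 4 group means, were sought among 737 described contigs. The nearest to beta type-5 were beta type-1 (r = 0.9) and alpha type-6-like (r = 0.87), and the nearest to maturation protein were beta type-1 (r = 0.91) and alpha type-6-like (r = 0.9). Alpha type-6-like had maturation protein (r = 0.9) and beta type-1 (r = 0.89). Beta type-1 had villin-1, an actin-binding protein (r = 0.92), and beta type-6 (r = 0.91), and beta type-6 had beta type-1 (r = 0.91) and 26S protease regulatory subunit 10B (r = 0.9). Subunit 12 was nearest to 26S protease regulatory subunit 7 (r = 0.76) and tRNA (cytosine(38)-C(5))-methyltransferase (r = 0.68). SUMO 3 was nearest to the spindle checkpoint protein MAD1 (r = 0.71) and a ribosomal L1 domain-containing protein (r = 0.7). CBL-B was nearest to uncharacterized protein LOC105562140 (r = 0.78) and protein Tob1-like (r = 0.75). Without the old brains of queens O-603 and O-796 these r were lower for the proteasome contigs. Over the 30 libraries left, beta type-5 had r of 0.81 with beta type-1 and 0.77 with alpha type-6-like, and maturation protein 0.82 and 0.81 with the same contigs. Alpha type-6-like had 0.79 with beta type-1, and beta type-1 had 0.87 with villin-1 and 0.83 with beta type-6. Beta type-6 had 0.83 with subunit 10B, and subunit 12 had 0.62 with regulatory subunit 7, which came after uncharacterized protein LOC105425493 at 0.64. SUMO 3 had 0.71 with MAD1 and 0.66 with the L1 domain-containing protein, and CBL-B had 0.77 with LOC105562140 and 0.7 with Tob1-like. These r are descriptions over libraries that share depth and composition.

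The 26S protease regulatory subunits are ATPases at the base of the proteasome cap, and their names lack the search word. Subunit 10B averaged 71.2 ± 9.86 CPM in old fat bodies and 97.2 ± 17.2 CPM in young fat bodies, against 31.6 ± 9.35 CPM in old brains and 31.3 ± 3.18 CPM in young brains (SD, n = 8 each). Subunit 7 averaged 143 ± 21.99 CPM in old fat bodies and 206 ± 34.4 CPM in young fat bodies, against 51.7 ± 16.0 CPM in old brains and 52.6 ± 6.87 CPM in young brains (SD, n = 8 each). The old brains of queens O-603 and O-796 were at 45.9 and 46.8 CPM for subunit 10B and at 83.8 and 68.2 CPM for subunit 7, above the old-brain means for both. Both contigs were taken up after their values were seen and come from the same table chosen on age.

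Other ubiquitin-related contigs with an ant hit numbered 13, again all chosen by the authors on age. Between tissues of old queens 6 of 13 tested passed as higher in the fat body and 4 as lower. Over all contigs tested 26.1% passed as higher and 29.7% as lower, and 4 of 13 is near the latter share. The median log2 difference was 0.44 against -0.05 over all contigs. Between tissues of young queens 8 of 12 tested passed as higher and 1 as lower, where 23% and 34% of all contigs did. The median there was 0.95 against -0.271. The list was chosen on age in the same fat bodies, so a larger tissue difference in young queens is partly built in. The shares over all contigs are thus not a like comparison. COP9 signalosome complex subunit 2, part of the complex that removes the NEDD8 tag from cullin ligases, averaged 29.8 ± 5.57 CPM in old fat bodies and 14.8 ± 2.20 CPM in old brains (log2 difference 1.21 ± 0.15 SE, edgeR adjusted p = 2.8e-06). In young queens it averaged 44.1 ± 5.52 CPM in fat bodies and 16.5 ± 1.92 CPM in brains (1.46 ± 0.12, edgeR adjusted p = 3.9e-08). Ubiquitin fusion degradation protein 1, which helps to extract tagged proteins for degradation, was also higher in the fat body, by 1.23 ± 0.16 in old (edgeR adjusted p = 6.9e-06) and 1.32 ± 0.11 in young queens (adjusted p = 5.6e-08). The chaperone-linked ligase CHIP was higher by 0.89 ± 0.12 in old (edgeR adjusted p = 1.3e-05) and 1.18 ± 0.12 in young queens (adjusted p = 3e-07). The receptor ADRM1 was higher by 1.39 ± 0.2 in old (edgeR adjusted p = 1.5e-05) and 1.65 ± 0.15 in young queens (adjusted p = 1.2e-07). All these differences use TMM scaling and are relative to the rest of the transcriptome. Total-count scaling moved the median of all contigs to -1.46 in old and -1.149 in young queens. Differences of this size can flip with it, and their directions as shares of all counts are not given here.

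Those lower in the fat body of old queens included ubiquitin carboxyl-terminal hydrolase 1, an enzyme that removes ubiquitin, at 45.2 ± 7.74 CPM in fat bodies and 96.1 ± 8.06 CPM in brains (SD, n = 8 each, log2 difference -0.88 ± 0.12, edgeR adjusted p = 1e-05). It was lower in young queens too, by -0.68 ± 0.13 (edgeR adjusted p = 0.00023). F-box/WD repeat-containing protein 9-like (2 contigs of the same assembled component, at -0.75 ± 0.21 with edgeR adjusted p = 0.0054 and at -0.84 ± 0.3 with adjusted p = 0.026) and the ligase cblA-like (-0.97 ± 0.34, adjusted p = 0.023) were the others in old queens. In the brain, 0 of the 13 passed between ages in edgeR, and 0% of all 40572 contigs tested did. Of the 13, 11 were below 0 and 2 above, while 20805 of the 40572 were above 0. The median old minus young log2 difference was -0.14 against 0.009 over all contigs. The list was chosen on fat bodies of the same queens, and a shared shift in the brain was not tested. In the fat body, as a description, 12 of 12 with enough counts were below 0, with a median of -0.58 against 0.007.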

How the data were processed

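RNA of the brain and fat body of 16 queens was sequenced in 32 libraries. The authors deposited whole-number read counts per contig of a transcript assembly, without scaling, per the file headers. Tools listed in the submitters' processing notes, with no role, are RSEM 1.3.0, Bowtie, Bowtie2, Trimmomatic 0.36, FastQC 0.11.5 and DESeq2 1.2.10. The sources used here do not name an assembler. The authors' deposited age tables hold a mean normalised signal, a log2 fold change and its error, a test score and p-values, per the file headers; they list contigs with adjusted p under 0.05. Members and gene lists were chosen with earlier results of these data known. Marker and ubiquitin lists were word matches in the descriptions. Named contigs are all members, the 3 ubiquitin-list contigs of smallest adjusted p in each direction and comparison, and the 2 contigs most like each member.

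Counts were fitted with edgeR 4.0.16 in R 4.3.3 (quasi-likelihood test, TMM, filterByExpr with a minimum count of 10 and a minimum total of 15, Benjamini-Hochberg adjustment over all contigs tested, threshold 0.05) within the groups compared, and checked on simulated data. Of the deposited contigs, 3263 had no count. Alternatives were DESeq2 1.42.0, median-of-ratios (RLE) and total-count scaling, no filter, all libraries in a single fit, counts summed per assembled gene, left-out libraries and a queen block. CPM per library use TMM factors over 32 libraries; the pseudocount on log2 values was 1. Tests within groups compared use their own TMM factors, so log2 differences need not equal ratios of the printed CPM. Fat body and brain with the same number come from 1 queen, per the labels: deviations of the tissues of a queen correlated at r of 0.352 to 0.44 over 48253 contigs, with other queens at most at 0.096, and 16 of 16 matched best with their own queen. Permutation tests were run in Python 3.11.15, with ranks and p-value adjustment from scipy 1.17.1.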

Additional observations from a re-analysis of the deposited data

Results flagged for a closer look

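Within groups of 8 libraries, 1 value stood apart: CBL-B in the young brain of queen Y-361, at 34.7 CPM, where the gap to the nearest other young brain was 0.53 of the range of that group. The fat body of the same queen, at 8.09 CPM, was the highest of the 8 young fat bodies. Among the 32 groups examined (8 contigs in 4 groups), chance alone marks about 1 in 20, so a single such value is no more than chance gives.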

How the results depend on the processing

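The queen as a replicate block left the calls as they were: 7 members higher and 0 lower in old queens, and 7 higher and 1 lower in young queens. Over the alternatives run, 50 of 53 comparisons of counts were within 1.5 times of the reported count. Many of the 50 are of the fat body age contrast, which chose the members, or of age in the brain, where no member passed. Nothing is read from that number. The exceptions were the tissues of old queens with total-count scaling, where 4 members passed and not 7, and the pairs of members that passed, 22 over the 16 brains and 3 without old brains O-603 and O-796, against 10 over the fat bodies.

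The sign of the difference reversed in 20 cases, with the cause not tested. With total-count scaling the tissue difference was -0.34 for subunit 12 and -0.75 for SUMO 3 in old queens and -0.06 for SUMO 3 in young queens. For age in the brain, where no member passed, beta type-1 and beta type-5 were each at -0.02 without a count filter and at -0.02 with all libraries in a single fit. Without old brain O-603 the difference was -0.16 for beta type-1, -0.14 for beta type-5, -0.13 for alpha type-6-like and -0.04 for maturation protein. Without old brain O-796 it was -0.05 for beta type-1, -0.04 for beta type-5 and -0.03 for alpha type-6-like, with maturation protein at 0.11. Without both it was -0.29, -0.25, -0.25 and -0.22 for those 4 and -0.15 for beta type-6. Subunit 12 was at 0.01 without the old brain of lowest total count. Without a count filter SUMO 3 no longer passed in old queens (0.38, edgeR adjusted p = 0.14).

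In the fat body, leaving out each library in turn kept old minus young between -0.77 and -0.39 for the 7 lower members and between 1.1 and 1.3 for CBL-B. That contrast chose the members, so the kept directions are not an independent check. Over all contigs the fat body age fit called 179 contigs, 978 with total-count scaling (153 higher and 825 lower, against 125 and 54), 824 with counts summed per gene and 40 to 311 with a library left out. Between tissues of old queens 3532 contigs were higher and 20234 lower with total-count scaling, against 9035 and 10265; in young queens 4309 and 17806, against 8073 and 11953. Depth limits CBL-B most, with at least 57 counts per library against 385 or more for the others.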
